A study of Mus musculus with 16 samples.

Results

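The genes described here are 37 interferon-stimulated genes of the mouse, chosen by name as well-known targets of interferon signalling, out of 21631 genes tested in newborn mouse lung after ozone. For each gene the brightest of its probes was used, found through the gene name or an older synonym. All 37 had a probe, and 36 passed the filter on dim probes, which asked for a signal well above background on at least 4 of 16 arrays. The exception was Oas1g, which was well above background on fewer arrays and is given by its values alone.

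Transcripts were profiled from the whole lungs of BALB/c mice, an inbred laboratory strain, with 1 array for each of 16 mice. Pups 3 days old breathed either ozone at 1000 ppb or filtered air over 3 h, and the lungs were collected after a further 6 h or 24 h. This gave 4 groups of 4 mice, namely ozone and air at 6 h and ozone and air at 24 h. The air pups were littermates of the ozone pups, each time point was run apart with air controls of its own, and pups were cross-fostered during exposure. The mice were raised free of specific pathogens, and the 4 mice per group were drawn at random from larger groups. At each time point replicates 1 and 2 of both exposures shared 1 slide and replicates 3 and 4 shared another, so each slide held both exposures.

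Interferons are secreted proteins that warn cells of virus infection. Type I and type III interferons act through the kinases JAK1 and TYK2 and a complex that holds STAT2 and IRF9 and binds the interferon-stimulated response element, while the signal of type II interferon, IFN-gamma, reaches genes through the gamma-activated site. The genes switched on in this way encode sensors of foreign nucleic acid, transcription factors that amplify the signal, antiviral effectors, parts of the antigen-presenting machinery and chemokines. In the lung they are best known from respiratory virus infection.

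The promoters of 4 members are shown because they carry the motifs through which the members are known to respond, and because Ifit3 and Oas1a are among the members that passed the test. Each sequence covers the 250 bases before the start of transcription, 5′ to 3′ on the strand of the gene, as RefSeq gives it on build GRCm38.p6, and capitals mark matches to a motif.

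Ifit3 promoter, chr19:34583279-34583528, plus strand: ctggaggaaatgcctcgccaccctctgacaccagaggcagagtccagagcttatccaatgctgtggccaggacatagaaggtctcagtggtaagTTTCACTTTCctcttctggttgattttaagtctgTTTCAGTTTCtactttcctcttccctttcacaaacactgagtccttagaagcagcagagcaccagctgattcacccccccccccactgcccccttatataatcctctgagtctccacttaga

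Ifit1 promoter, chr19:34640639-34640888, plus strand: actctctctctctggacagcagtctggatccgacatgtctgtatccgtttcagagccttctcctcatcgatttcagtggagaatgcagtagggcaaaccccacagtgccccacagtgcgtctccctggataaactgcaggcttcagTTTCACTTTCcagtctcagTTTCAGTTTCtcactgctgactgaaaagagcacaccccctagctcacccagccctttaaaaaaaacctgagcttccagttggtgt

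Oas1a promoter, chr5:120907526-120907775, minus strand: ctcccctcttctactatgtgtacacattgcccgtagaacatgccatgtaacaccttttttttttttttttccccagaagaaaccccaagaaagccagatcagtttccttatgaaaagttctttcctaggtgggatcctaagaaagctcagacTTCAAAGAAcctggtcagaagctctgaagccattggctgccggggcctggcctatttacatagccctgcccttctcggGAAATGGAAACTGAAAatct

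Irf1 promoter, chr11:53769764-53770013, plus strand: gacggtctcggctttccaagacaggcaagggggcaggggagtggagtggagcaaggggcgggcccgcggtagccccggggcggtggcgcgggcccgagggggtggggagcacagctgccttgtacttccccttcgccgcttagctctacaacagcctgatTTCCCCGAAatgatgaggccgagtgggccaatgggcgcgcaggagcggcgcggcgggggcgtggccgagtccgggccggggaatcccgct

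The motif searched for the interferon-stimulated response element was GAAA, any 2 bases and GAAA, on either strand. For the gamma-activated site it was TTC, any 3 bases and GAA, which reads the same on both strands. Matches may overlap. The Ifit3 and Ifit1 windows each held 2 matches to the first motif on the minus strand, which read TTTC, any 2 bases and TTTC as printed. In Oas1a, 2 overlapping matches lay next to the start of transcription and 1 match to the second motif lay further upstream, while Irf1 held 1 match to the second motif. RefSeq windows of 300 bases, from 250 before to 50 after the start, were found for 27 of the 37 members. The first motif was present in 14 of these 27 (51.9%), against 3.99% of all 27025 genes with a window. The members with it were Ifih1, Ddx58, Stat2, Ifit1, Ifit3, Oas1a, Oas1g, Oas3, Gbp2, Gbp3, Isg15, Rsad2, Bst2 and Cxcl10. The second motif was present in 6 of 27 (22.2%), namely Irf1, Ifit2, Oas1a, Ifi35, Bst2 and Psmb8, against 9.55% of all genes. A match describes the letters of the window and says nothing of binding in these lungs.

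Levels are log2 of the background-subtracted signal relative to the 75th percentile of the same array, so a level of 0 equals that percentile and a difference of 1 is a doubling. Levels of different genes rest on different probes and are not compared. The percentile lay between 574 and 946 signal units over the 16 arrays. The share of spots well above background ran from 65.0% to 83.9%, with the highest share on ozone replicate 3 of 6 h and at most 72.4% on the other arrays of that time. All 8 markers of lung epithelium passed the filter, and Sftpc, the gene of surfactant protein C, lay between 9.03 and 9.63 on all arrays. In whole lung, a change in the number of cells that express a gene and a change of RNA per cell cannot be told apart.

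At 6 h after ozone the interferon-stimulated genes as a group were slightly lower than in air, and at 24 h slightly higher by their medians, but few single members passed the test. At 6 h, 2 of the 36 tested members fell, Ifi27 and Oas1a, and none rose, by limma with a Benjamini-Hochberg adjusted p under 0.05 over all genes. The background at 6 h was 3.12% of all genes lower and 1.36% higher, and 2 of 36 is near that share of all genes. At 24 h, 1 member rose, Ifit3, and none fell, against 0.684% of all genes higher and 1.32% lower.

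In direction, 25 of 36 members had a mean difference below 0 at 6 h, with a median of -0.19 against 0.07 for all genes. At 24 h, 32 of 36 lay above 0, with a median of 0.23 against 0.02 for all genes. Normexp background correction moved the median of all genes to 0.14 at 6 h and -0.13 at 24 h. With it, the medians of the members were -0.06 and 0.14. Then 20 of 36 lay below 0 at 6 h, and 23 of 36 lay above 0 at 24 h. At an unadjusted limma p under 0.05 there were 5 lower and 0 higher members at 6 h, where 10.8% of all genes were lower and 10.2% higher, so 5 of 36 is near the share of all genes. At 24 h there were 12 higher and 0 lower members at that level, where 8.25% of all genes were higher and 5.05% lower. Both shifts were uneven between arrays. Ozone replicate 1 of 24 h was the highest of the 8 arrays of its time for 31 of 36 members, against 29.8% of all genes. Ozone replicate 3 of 6 h was the lowest of its 8 arrays for 17 of 36 members, against 10.2% of all genes, and it was the highest array for 38.7% of all genes.

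Without ozone replicate 1, the median of the members at 24 h was 0.09, with 28 of 36 above 0 and Ifit3 still the only member called. Without ozone replicate 3, the median at 6 h was -0.12, with 26 of 36 below 0 and Ifi27 the only member called. The heat map of the members by array shows these 2 arrays as columns that stand apart.

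**Figure D1:**
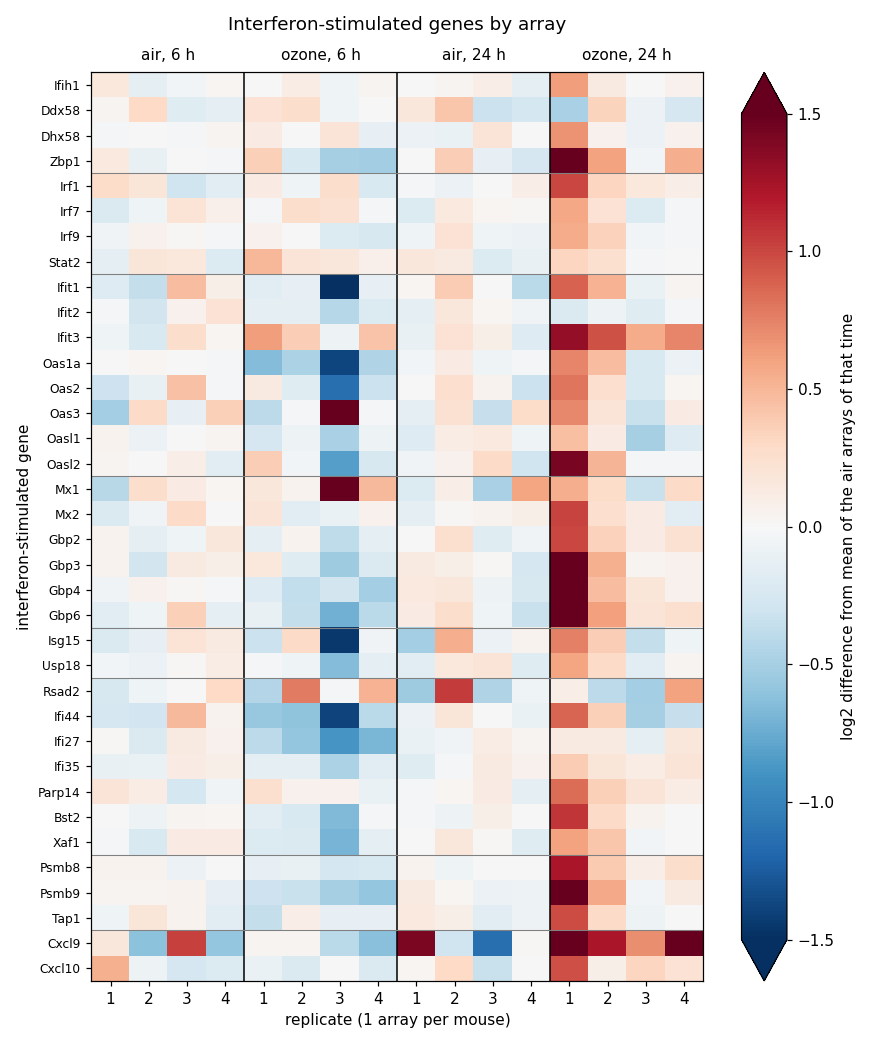
Heat map of 36 interferon-stimulated genes (rows, in role order with grey lines between roles) over 16 arrays (columns, grouped by exposure and time), coloured by the log2 difference from the mean of the 4 air arrays of the same time, with colours ending at 1.5 in either direction. Ozone replicate 1 of 24 h is the highest of its 8 arrays for 31 of the 36 genes.

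**Figure D2:**
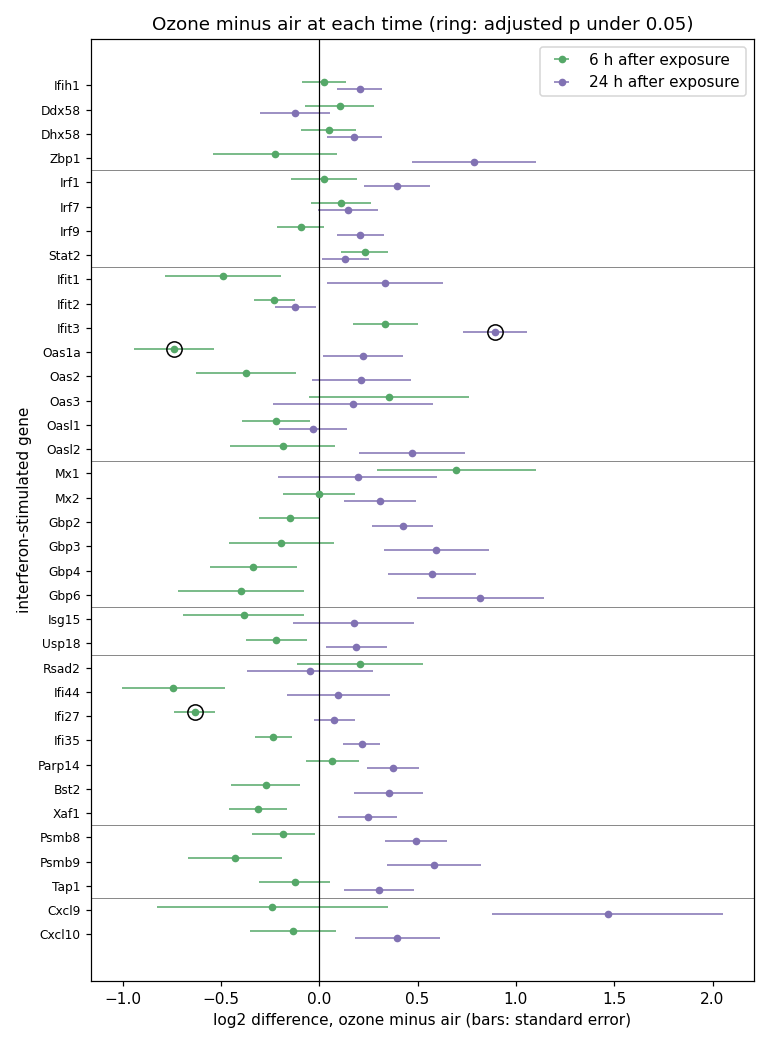
Log2 difference of ozone minus air (horizontal axis) for each of 36 interferon-stimulated genes (vertical axis) at 6 h and 24 h, with 4 arrays per group, bars for the standard error and rings for a limma adjusted p under 0.05. Rings mark Ifi27 and Oas1a at 6 h and Ifit3 at 24 h, and 32 of the 36 points of 24 h lie above 0.

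Among the sensors of foreign nucleic acid none was called at either time. Zbp1, which binds Z-form nucleic acid and can trigger cell death, was the sensor with the smallest p at 24 h. Its levels in the ozone lungs of 24 h were -0.84, -2.28, -2.92 and -2.33, and in the air lungs -2.88, -2.51, -3.0 and -3.14. Ozone replicates 1, 2 and 4 were above all air lungs, with replicate 1 far above, while replicate 3 fell below 2 of them, so the groups overlapped. The mean difference was 0.79 ± 0.31 (SE, n = 4 per group; limma adjusted p = 0.255). At 6 h the Zbp1 difference was -0.23 ± 0.31 (limma adjusted p = 0.702). Ifih1, which encodes the RNA sensor MDA5, ran from -0.07 to 0.09 in ozone and from -0.15 to 0.14 in air at 6 h, a full overlap. At 24 h its ozone levels were 0.19, -0.30, -0.42 and -0.36 against -0.44, -0.38, -0.32 and -0.57 in air, so replicate 1 stood clear of the air lungs and replicate 2 just above them. Dhx58, which encodes the sensor LGP2, differed by 0.18 ± 0.14 at 24 h. Ddx58, which encodes the sensor RIG-I, differed by -0.12 ± 0.18 at 24 h, and ozone replicate 1 was its lowest array of that time, at -1.20.

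The 4 transcription factors that carry or amplify the signal also gave no call. Irf1, a factor induced strongly by IFN-gamma, had levels of 4.19, 3.51, 3.34 and 3.29 in ozone at 24 h and 3.17, 3.10, 3.19 and 3.29 in air. The ozone lungs were the higher ones, with 1 ozone and 1 air lung level with each other at the edge. The mean difference was 0.40 ± 0.17 (SE, n = 4 per group; limma adjusted p = 0.303). A second and dimmer probe of Irf1 gave 0.08 at 24 h, where the groups overlapped and an air lung was highest. Stat2 had the smallest p of these factors at 6 h, with ozone levels of 0.82, 0.52, 0.50 and 0.40 and air levels of 0.19, 0.51, 0.49 and 0.12. The groups overlapped, and the difference was 0.23 ± 0.12 (limma adjusted p = 0.288). Irf7, the master regulator of type I interferon production, differed by 0.11 ± 0.15 at 6 h and 0.14 ± 0.15 at 24 h. Irf9, the DNA-binding partner of STAT2, differed by -0.09 ± 0.12 at 6 h and 0.21 ± 0.12 at 24 h. A second and dimmer probe of Irf9 went the other way, by 0.30 at 6 h and -0.06 at 24 h.

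The RNA-binding effectors held Ifit3 and Oas1a, the first called higher at 24 h and the second lower at 6 h. The group as a whole had a median of -0.23 at 6 h and 0.22 at 24 h over 8 members tested, and the latter was -0.11 with normexp background correction. Ifit3 encodes a partner of IFIT1, a protein that binds viral RNA with an unmodified 5′ end. Its levels at 24 h were 0.57, 0.21, -0.19 and -0.02 in ozone and -0.87, -0.54, -0.66 and -0.94 in air. All 4 ozone lungs lay above all 4 air lungs, on both slides. Ifit3 was 0.89 ± 0.16 higher in ozone, or 1.86 times the air level (SE, n = 4 per group; limma adjusted p = 0.00608). At 6 h, with ozone levels of 0.42, 0.17, -0.28 and 0.23 and air levels of -0.27, -0.44, 0.07 and -0.17, the groups overlapped and the difference was 0.34 ± 0.16 (limma adjusted p = 0.252). The difference between the times, 24 h minus 6 h, was 0.56 ± 0.23 for Ifit3 (limma adjusted p = 0.325), so a change of its response between 6 h and 24 h was not shown. Ifit3 was called at 24 h in all 16 fits that left out 1 array. It was called in 12 of 13 other settings, and the exception was the difference within the slide of replicates 3 and 4, which was 0.70.

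Genes next to Ifit3 in function or sequence gave smaller differences at 24 h. Ifit3b, a near copy of Ifit3 named here after the values of Ifit3 were seen, differed by 0.57 ± 0.21 at 24 h (limma adjusted p = 0.198) and 0.43 ± 0.21 at 6 h. The probes of Ifit3 and Ifit3b share no run longer than 8 bases. Ifit1, whose promoter holds the same pair of motifs, had 24 h levels of -1.0, -1.36, -1.99 and -1.85 in ozone and -1.85, -1.5, -1.89 and -2.29 in air. Replicates 1 and 2 of ozone were above the air lungs and replicates 3 and 4 within their range, for a difference of 0.34 ± 0.29 (limma adjusted p = 0.744). At 6 h the Ifit1 levels were -0.96, -0.92, -2.36 and -0.93 in ozone and -1.0, -1.16, -0.35 and -0.72 in air, with replicate 3 far below the other ozone lungs. Ifit2, another tetratricopeptide-repeat protein of this family, differed by -0.23 ± 0.11 at 6 h and -0.12 ± 0.11 at 24 h, and a second probe of Ifit2 gave 0.21 at 6 h.

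Oas1a encodes an oligoadenylate synthetase, an enzyme that senses double-stranded RNA and makes the messenger that activates RNase L. Its levels at 6 h were -2.56, -2.39, -3.29 and -2.36 in ozone and -1.92, -1.88, -1.91 and -1.94 in air. The air lungs were tightly grouped and all 4 ozone lungs lay below them, replicate 3 furthest. Oas1a was -0.74 ± 0.20 different in ozone, or 0.599 times the air level (SE, n = 4 per group; limma adjusted p = 0.0479). That call stood close to the threshold and was kept in only 3 of 16 fits that left out 1 array and 3 of 13 other settings, with differences from -0.97 to -0.35 over those settings. Without ozone replicate 3 it was lost, although the other ozone lungs were still all below the air lungs. At 24 h the levels were -1.38, -1.64, -2.33 and -2.19 in ozone and -2.14, -1.98, -2.17 and -2.12 in air. Replicates 1 and 2 of ozone were above the air lungs and replicates 3 and 4 below them, and the mean difference was 0.22 ± 0.20 (limma adjusted p = 0.763).

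The other oligoadenylate synthetase genes gave no call. Oas2 differed by -0.37 ± 0.25 at 6 h and 0.21 ± 0.25 at 24 h, and Oasl2, a ubiquitin-like relative, by -0.19 ± 0.27 and 0.47 ± 0.27. For Oasl2 at 24 h, ozone replicate 1 was at 1.35, above the range of -0.37 to 0.43 of the other 7 arrays. Oasl1, which restrains the translation of Irf7, differed by -0.22 ± 0.17 and -0.03 ± 0.17. Oas3 differed by 0.35 ± 0.41 and 0.17 ± 0.41, and Oas1g was between -8.94 and -7.13 on all arrays except ozone replicate 3 of 6 h, at -3.93. That array also held the highest value of its time for Oas3, Mx1 and Dhx58, whereas it was the lowest for Oas1a, Oas2, Oasl1 and Oasl2.

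**Figure D3:**
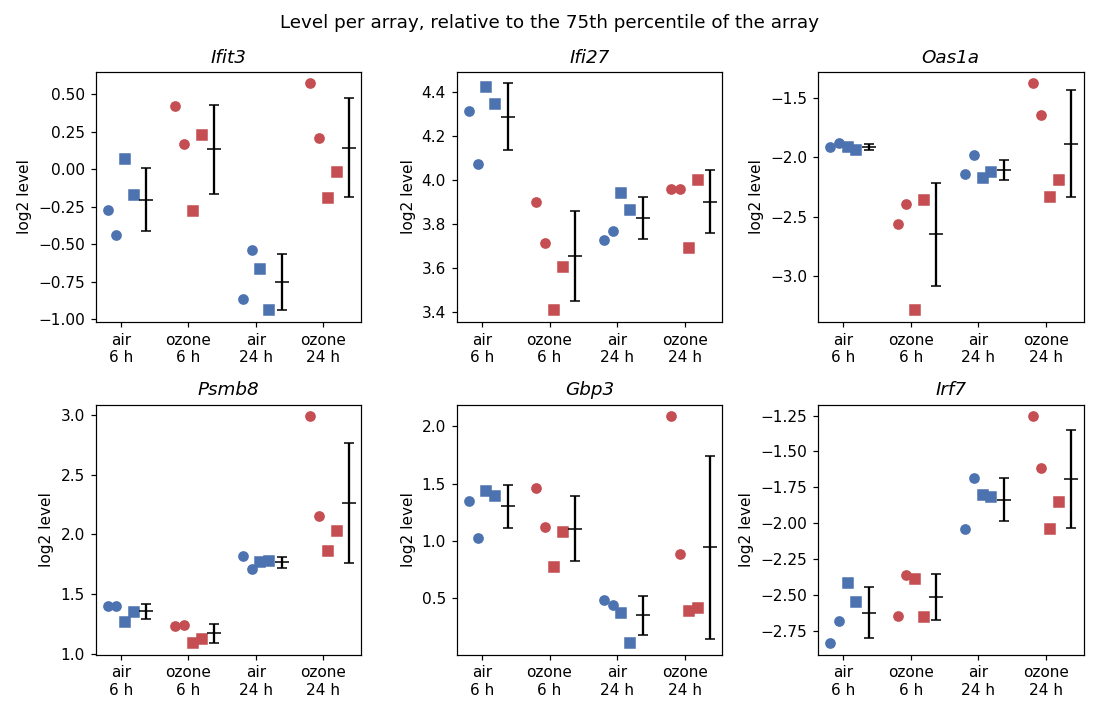
Log2 level relative to the 75th percentile of the array for Ifit3, Ifi27, Oas1a, Psmb8, Gbp3 and Irf7 in air (blue) and ozone (red) lungs at 6 h and 24 h, with circles for replicates 1 and 2, squares for replicates 3 and 4, and black bars for the group mean ± SD of 4 arrays. Ifit3 in ozone at 24 h (-0.19 to 0.57) lies above air (-0.94 to -0.54), and Oas1a and Ifi27 in ozone at 6 h lie below air.

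The interferon-induced GTPases, which attack viruses and the vacuoles of intracellular microbes, were above 0 in all 6 members at 24 h (in 5 of 6 with normexp background correction) and called in none. Their median difference was 0.50 at 24 h and -0.17 at 6 h. Gbp3, a guanylate-binding protein, had 24 h levels of 2.09, 0.89, 0.39 and 0.41 in ozone and 0.48, 0.44, 0.37 and 0.10 in air. Replicate 1 stood more than a doubling above every air lung, replicate 2 was also above, and replicates 3 and 4 were within the air range. The Gbp3 difference was 0.59 ± 0.27 (SE, n = 4 per group; limma adjusted p = 0.333). Gbp2 gave 0.59, -0.07, -0.29 and -0.18 in ozone at 24 h against -0.41, -0.17, -0.59 and -0.47 in air. Replicates 1 and 2 were above the air lungs and replicates 3 and 4 within their range, and the difference was 0.42 ± 0.15 (limma adjusted p = 0.207). Gbp6 differed by 0.82 ± 0.32 and Gbp4 by 0.57 ± 0.22 at 24 h (limma adjusted p = 0.247 and 0.244), again with replicate 1 highest. The probe used for Gbp6 carries an older name of that gene, and the probe that the files call Gbp6 belongs to Gbp7 by its accession.

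Mx1 and Mx2 are dynamin-like antiviral GTPases, and most inbred strains carry a defective Mx1 allele. Mx1 levels at 6 h were -5.79, -5.90, -3.87 and -5.47 in ozone and -6.37, -5.69, -5.83 and -5.92 in air. Replicate 3 of ozone stood far above the rest, replicate 4 just above the air lungs, and replicates 1 and 2 within their range, for a difference of 0.70 ± 0.40 (limma adjusted p = 0.335). At 24 h Mx1 differed by 0.19 ± 0.40, and Mx2 by 0.31 ± 0.18.

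Of the ISG15 system, a ubiquitin-like protein and the protease Usp18 that removes it, neither member was called. Isg15 levels at 24 h were 0.22, -0.17, -0.90 and -0.61 in ozone and -1.06, 0.00, -0.63 and -0.49 in air, a broad overlap with a difference of 0.18 ± 0.31 (limma adjusted p = 0.916). At 6 h they were -0.60, 0.01, -1.73 and -0.34 in ozone and -0.50, -0.41, -0.07 and -0.15 in air, with replicate 3 lowest and replicate 2 highest, both ozone lungs. Usp18, which also blunts signalling at the type I receptor, had 6 h levels of 0.30, 0.25, -0.34 and 0.19 in ozone and 0.28, 0.23, 0.33 and 0.43 in air. The ozone lungs other than replicate 3 lay within or just below the air range, and the Usp18 difference was -0.22 ± 0.16 (limma adjusted p = 0.435). At 24 h it was 0.19 ± 0.16 (limma adjusted p = 0.716).

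Among the remaining effectors Ifi27, a small membrane protein of mitochondria and the nuclear envelope, fell at 6 h. Its levels were 3.90, 3.71, 3.41 and 3.60 in ozone and 4.31, 4.07, 4.42 and 4.35 in air, and all 4 ozone lungs lay below all 4 air lungs. Ifi27 fell by 0.63 ± 0.10, to 0.645 times the air level (SE, n = 4 per group; limma adjusted p = 0.00353). The call held in all 16 fits that left out 1 array and in 11 of 13 other settings. It was lost for the difference within the slide of replicates 1 and 2 and with the authors' deposited values. At 24 h the levels of 3.96, 3.96, 3.69 and 4.00 in ozone and 3.73, 3.77, 3.94 and 3.86 in air overlapped, with a difference of 0.08 ± 0.10 (limma adjusted p = 0.87). The difference between the times was 0.71 ± 0.15, the smallest adjusted p of any member for that contrast (limma adjusted p = 0.0734), and it missed the threshold.

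The name Ifi27 is attached in the files to probes of more than 1 gene, so the first 30 bases of the probe used, and a stretch of 30 bases at most from 2 other probes, are shown to tell them apart. Positions come from the array design, on build mm9, and each covers the whole probe of 60 bases, and capitals mark the 21 bases that the last 2 share.

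Ifi27 probe used, chr12:104678353-104678412, plus strand: ccaacttgtctaacacagagaaggattaat

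second probe of Ifi27, chr12:104693928-104693987, minus strand: agttCCAAAAGGCACCTTCAGAACCttctt

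Ifi27l2a probe, chr12:104680394-104680453, minus strand: CCAAAAGGCACCTTCAGAACCctcactgat

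The probe used matches the RefSeq accession of Ifi27 and shares no run longer than 4 bases with either of the others. The second probe rests on a cDNA clone whose gene may be a relative of Ifi27, and it differed by -0.91 at 6 h and 0.16 at 24 h. It entered the values of Ifi27 only in the setting with the mean of probes. Ifi27l2a, a neighbouring relative, differed by -0.96 ± 0.29 at 6 h (limma adjusted p = 0.0723) and 0.17 ± 0.29 at 24 h. All 3 probes were lower in ozone at 6 h by their means, and of the genes fitted Ifi27 passed the test and Ifi27l2a did not.

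Of the other 6 effectors in this group, all of unlike function, none was called. Ifi44, which restrains virus replication, had 6 h levels of -0.90, -0.93, -1.71 and -0.73 in ozone and -0.58, -0.61, 0.16 and -0.27 in air. The groups did not overlap, and the Ifi44 difference was -0.74 ± 0.26 (SE, n = 4 per group; limma adjusted p = 0.116). A second and dimmer probe of Ifi44 went the other way at 6 h, by 0.40. Ifi35, a scaffold and secreted danger signal, did not overlap at 6 h either, at 0.73, 0.73, 0.40 and 0.71 in ozone and 0.77, 0.77, 1.00 and 0.96 in air. Its difference was -0.23 ± 0.09 at 6 h and 0.22 ± 0.09 at 24 h (limma adjusted p = 0.166 and 0.319). In all, 7 members had their 4 ozone lungs below the 4 air lungs at 6 h, namely Oas1a, Gbp4, Ifi44, Ifi27, Ifi35, Psmb8 and Psmb9, where 4.87% of all genes did. At 24 h, 2 members had all ozone lungs above, Ifit3 and Psmb8, where 6.8% of all genes did.

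Rsad2, which encodes viperin, an enzyme that makes a chain-terminating nucleotide, did not follow the pattern of replicate 1. Its 24 h levels were 0.35, -0.14, -0.26 and 0.86 in ozone and -0.28, 1.30, -0.21 and 0.19 in air. The highest lung was an air lung, and the Rsad2 difference was -0.05 ± 0.32 (limma adjusted p = 0.984). Xaf1, a protein that opposes inhibitors of apoptosis, had 6 h levels of -0.22, -0.24, -0.71 and -0.15 in ozone and -0.04, -0.24, 0.11 and 0.10 in air. Replicate 3 of ozone lay lowest, with the other lungs close together, and the difference was -0.31 ± 0.15 (limma adjusted p = 0.239). Parp14, an ADP-ribosyltransferase, had 24 h levels of 2.45, 1.96, 1.81 and 1.72 in ozone and 1.59, 1.64, 1.73 and 1.48 in air. Only ozone replicate 4 was below the highest air lung, and the difference was 0.37 ± 0.13 (limma adjusted p = 0.193). Bst2, or tetherin, which holds budding viruses at the cell surface, differed by -0.27 ± 0.18 at 6 h and 0.35 ± 0.18 at 24 h.

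The members of antigen processing were lower at 6 h and higher at 24 h by their means, without a call. Psmb8 and Psmb9 are inducible catalytic subunits of the immunoproteasome, and Tap1 is a subunit of the peptide transporter that loads MHC class I. Psmb8 levels at 24 h were 2.99, 2.16, 1.86 and 2.03 in ozone and 1.82, 1.71, 1.77 and 1.78 in air. The groups did not overlap, the lowest ozone lung being just above the highest air lung, and the difference was 0.49 ± 0.16 (SE, n = 4 per group; limma adjusted p = 0.144). Psmb9 levels at 6 h were 0.97, 0.95, 0.78 and 0.70 in ozone and 1.32, 1.32, 1.33 and 1.15 in air, all ozone lungs below. At 24 h they were 3.13, 2.03, 1.42 and 1.60 in ozone and 1.59, 1.49, 1.38 and 1.39 in air, with replicate 1 far above and replicate 3 inside the air range. The Psmb9 differences were -0.43 ± 0.24 at 6 h and 0.58 ± 0.24 at 24 h (limma adjusted p = 0.318 and 0.275). Tap1 differed by -0.13 ± 0.18 and 0.30 ± 0.18.

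The chemokines Cxcl9 and Cxcl10 draw T and NK cells through the receptor CXCR3, and Cxcl9 answers chiefly to IFN-gamma. Cxcl9 was close to background. It was well above background on 3 of 4 ozone lungs and 1 of 4 air lungs at 24 h and on 0 of 8 lungs at 6 h, so it passed the filter only through lungs of 24 h. Its own difference is not read at either time, although its values, below 0 at 6 h and above 0 at 24 h, are among the 36 in the counts and medians of the members. Its 24 h levels were -5.54, -6.46, -6.98 and -5.87 in ozone and -6.27, -7.98, -8.81 and -7.66 in air, an overlap in which air replicate 1 reached the ozone range. Cxcl9 had the largest spread within groups of any member, with an SD of 0.75, mostly over lungs not well above background. Cxcl10 had 6 h levels of -3.75, -3.86, -3.65 and -3.86 in ozone and -3.11, -3.72, -3.90 and -3.85 in air, a full overlap. At 24 h, with -3.24, -4.13, -3.90 and -4.0 in ozone and -4.18, -3.91, -4.54 and -4.21 in air, only replicate 1 stood apart, and the difference was 0.40 ± 0.22 (limma adjusted p = 0.472). With normexp background correction of the same spots, both chemokines had a difference below 0 at 24 h, so their direction depends on how the background of dim probes is handled.

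Because single arrays weighed so heavily, the members were also read array by array. Relative to the mean of the air lungs of the same time, the median member lay at 0.82, 0.33, -0.04 and 0.06 in ozone replicates 1 to 4 at 24 h, with 34, 34, 14 and 24 of 36 members above 0. The 4 air lungs of that time had medians between -0.07 and 0.14, with 15, 29, 17 and 11 of 36 members above 0. At 6 h the ozone medians were -0.10, -0.07, -0.39 and -0.13, with 15, 13, 7 and 7 of 36 members above 0. The air medians of 6 h ran from -0.07 to 0.05, with 14, 14, 24 and 19 members above 0 in replicates 1 to 4. The high medians thus belonged to replicates 1 and 2 of 24 h, which shared a slide. At 6 h ozone replicate 3 had the lowest median, and ozone replicates 1 and 4 also lay below all medians of air. Ozone replicate 2, at -0.075, was level with air replicate 2 of the same slide, at -0.069. The summed signal of the members was 0.101% of the array in replicate 1 of 24 h and 0.0634% to 0.0737% in the other ozone lungs, against 0.0599% to 0.0660% in air. The members varied more within groups than most genes. Their median SD within groups was 0.28 against 0.19 for all genes, and 30 of 36 were above the median of all genes. That spread includes the 2 arrays that stand apart, and mice, arrays and slides cannot be told apart in it.

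**Figure D4:**
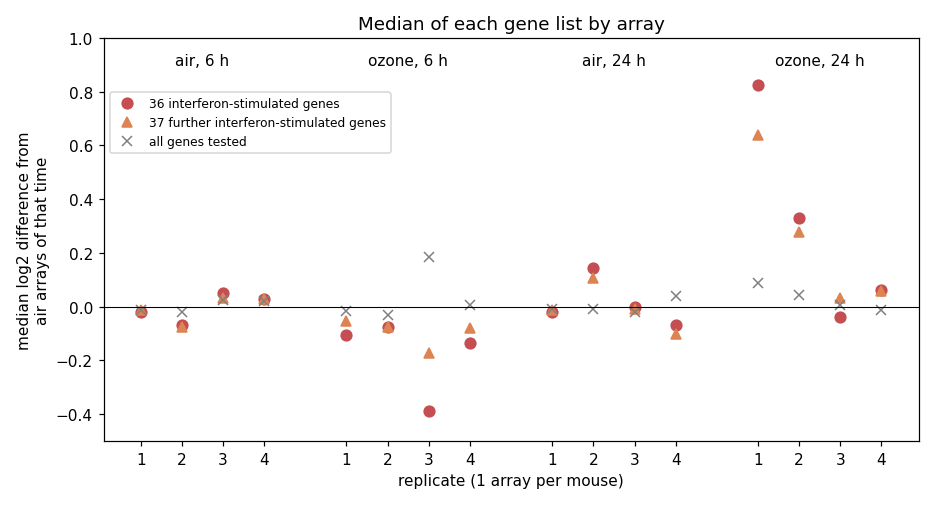
Median log2 difference from the mean of the 4 air arrays of the same time (vertical axis) for the 36 interferon-stimulated genes, 37 further interferon-stimulated genes and all genes tested, for each of 16 arrays (horizontal axis, replicates 1 to 4 in 4 groups). Ozone replicate 1 of 24 h stands highest for both lists (0.82 and 0.64), and ozone replicate 3 of 6 h is lowest for the members (-0.39).

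Within the slides, the median difference at 24 h was 0.51 on the slide of replicates 1 and 2, with 33 of 36 members above 0, and 0.06 on that of replicates 3 and 4, with 22 above 0. All genes had medians of 0.07 and -0.01. On the first slide Ifit3 was called by limma, where 0.0878% of all genes were called higher, and on the second no member was, where 0.116% were. At 6 h the medians were 0.01 on the slide of replicates 1 and 2 and -0.35 on that of replicates 3 and 4. The low median at 6 h was thus that of 1 slide, but single members were below 0 on both, among them Ifi27, Oas1a, Ifi44 and all 3 members of antigen processing. On the slide of replicates 3 and 4, Ifi27, Ifi44 and Oas1a were called lower, where 2.26% of all genes were, and on the other slide no member was, where 0.19% were. The difference between the slides was itself fitted, and by limma 0 of 36 members and 0 of 21631 genes passed at either time. At an unadjusted limma p under 0.05, 7 members were lower at 6 h and 12 at 24 h, where 3.3% and 4.63% of all genes were. The members' shift was already known from these data to differ between slides, so these counts and the medians below only describe it. The median of that slide difference was -0.30 at 6 h and -0.50 at 24 h, against 0.10 and -0.09 for all genes. A difference between the mice of the slides and a difference between the slides cannot be told apart.

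**Figure D5:**
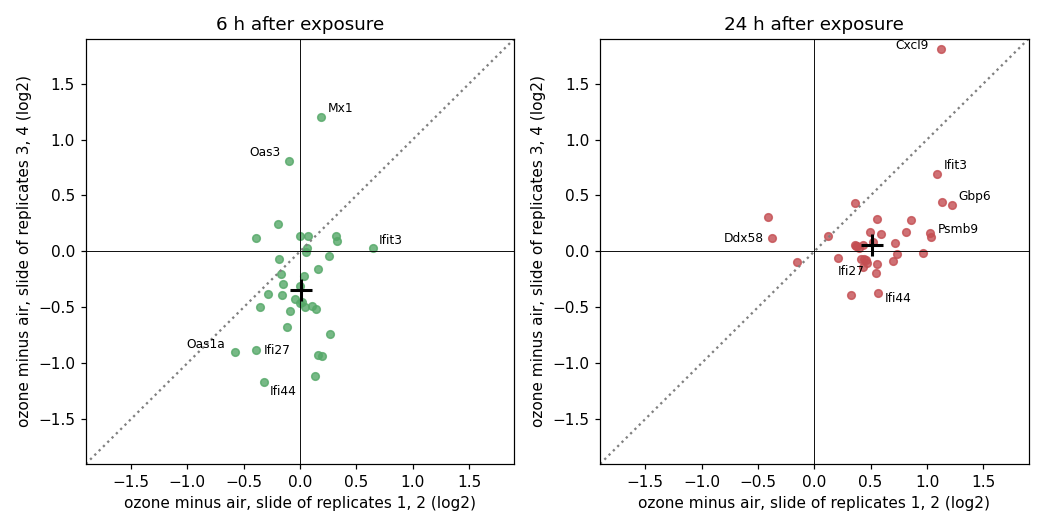
Log2 difference of ozone minus air on the slide of replicates 1 and 2 (horizontal axis) and on the slide of replicates 3 and 4 (vertical axis) for 36 interferon-stimulated genes at 6 h and 24 h, with 2 ozone and 2 air arrays per slide, a cross at the medians and a dotted line of equal values. At 24 h the cross lies at 0.51 and 0.06, below the line, and at 6 h at 0.01 and -0.35.

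To ask whether the members responded differently at the 2 times, the ozone difference at 24 h minus that at 6 h was tested. No member passed by limma, against 0.0647% of all genes. At an unadjusted p under 0.05, 13 of 36 were higher, where 8% of all genes were. The median over the members was 0.54 against -0.04 for all genes, with 31 of 36 above 0. Without the 2 arrays that stand apart it was 0.23, with 30 of 36 above 0. By sign, 23 of 36 members lay below 0 at 6 h and above 0 at 24 h, against 18.9% of all genes.

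In the air lungs alone, the members also differed between the times. By limma 3 members were higher at 24 h than at 6 h and 12 lower, where 21.4% of all genes were higher and 28.5% lower. The count of lower members is near that share and the count of higher members is under it. Tap1 rose by 1.60 ± 0.18, from -2.85 to -2.5 across the 6 h lungs to -1.24 to -0.94 across the 24 h lungs (limma adjusted p = 1.19e-06). Irf7 rose by 0.79 ± 0.15 and Psmb8 by 0.41 ± 0.16. The largest falls were Ifi44 (-1.16 ± 0.26), Ifit1 (-1.08 ± 0.29), Rsad2 (-1.05 ± 0.32) and Gbp3 (-0.95 ± 0.27). Gbp3 in air, for example, was between 1.02 and 1.44 at 6 h and between 0.10 and 0.48 at 24 h. Each time had slides of its own, so time and slide cannot be told apart here.

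The pathway around the members was read from lists written beside them. Of 18 interferon genes listed, 12 had a probe and 8 passed the filter, and by limma none was called at either time, nor had any an unadjusted p under 0.05. Ifng, the gene of IFN-gamma, was well above background on all 16 arrays. At 24 h its levels were -3.56, -4.07, -4.58 and -4.74 in ozone and -4.64, -4.66, -4.84 and -5.10 in air. Replicate 1 was highest and replicate 4 fell inside the air range, and the Ifng difference was 0.57 ± 0.32 (SE, n = 4 per group; limma adjusted p = 0.488). At 6 h it was 0.04 ± 0.32. With normexp background correction 0 of the 8 interferon genes that passed, Ifng among them, lay above 0 at 24 h. The direction of Ifng at 24 h thus depends on how background is handled. The type I genes that passed, Ifna2, Ifna5, Ifna9, Ifna12, Ifna13 and Ifnab, and the type III gene Ifnl3 gave no call, and their family holds near copies that 1 probe may not separate. Ifnb1, the first type I interferon made in most infected cells, was well above background on 1 array, so its level stayed unmeasured on the others.

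All 10 listed genes of the receptors and the signalling below them were measured, and none was called. Their medians were 0.11 at 6 h and 0.17 at 24 h, and 3 of 10 were higher at each time at an unadjusted p under 0.05, where 10.2% of all genes were at 6 h and 8.25% at 24 h. Of 5 brakes on the pathway, such as Socs1, none was called by limma, and 2 were higher at 24 h at an unadjusted p under 0.05. Of all genes, 3.12% were called lower at 6 h and 1.32% at 24 h. Of 14 genes that lead to interferon production, Cgas, the sensor of DNA in the cytosol, was lower in ozone at both times. Its 6 h levels were -1.63, -1.87, -1.57 and -1.67 in ozone and -1.15, -1.23, -1.16 and -1.16 in air, without overlap. Cgas fell by 0.51 ± 0.10 at 6 h and by 0.41 ± 0.10 at 24 h (limma adjusted p = 0.0119 and 0.0483). The 6 h call was kept in 16 of 16 fits that left out 1 array and in 8 of 13 other settings, and with the mean of its probes the difference was -0.27. The 24 h call stood close to the threshold and was kept in 4 of 16 and 5 of 13.

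A longer list of 42 further interferon-stimulated genes, 37 of them tested, gave values like those of the members, with a median of -0.10 at 6 h and 0.24 at 24 h. Of these, 0 were called by limma at 6 h, with 3 lower at an unadjusted p under 0.05, where 10.8% of all genes were. At 24 h 13 were higher at that unadjusted level, where 8.25% of all genes were. By the adjusted level 1 was called higher at 24 h, where 0.684% of all genes were. That gene was Ifitm1, a membrane protein that hinders virus entry. Its 24 h levels were 1.11, 1.34, 1.1 and 1.28 in ozone and 0.41, 0.59, 0.60 and 0.81 in air. The groups did not overlap and replicate 1 was not the highest, unlike in most members. Ifitm1 rose by 0.61 ± 0.14 (SE, n = 4 per group; limma adjusted p = 0.0329), and it was called in 9 of 16 fits that left out 1 array. Of 9 genes of MHC class I and the immunoproteasome, none was called by limma, and 5 were higher at 24 h at an unadjusted p under 0.05. At 24 h all 9 lay above 0 (8 with normexp or quantile normalization), with a median of 0.36.

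Some markers of blood cells passed the test at 24 h, where 0.684% of all genes were called higher and 1.32% lower. Of all 21631 genes, 11887 lay above 0 at that time. Of 10 macrophage and monocyte markers tested, 2 rose, Csf1r and Mpeg1, and all 10 lay above 0 (9 with normexp or quantile normalization), with a median of 0.34. Their summed signal was 0.285% to 0.315% of the array in ozone and 0.261% to 0.292% in air. B-cell markers Cd79b and Vpreb3 rose by limma, out of 7, with a summed signal of 0.00668% to 0.00891% of the array in ozone against 0.00422% to 0.00542% in air. Of the 7, 5 lay above 0 (4 with normexp background correction), and Pax5 and Blk lay below. For T and NK cells 1 of 12 rose, Lck, and for plasmacytoid dendritic cells 1 of 7, Ly6d, a gene that B cells also express, and the medians of these 2 lists, 0.37 and 0.26, turned below 0 with normexp background correction. Siglech, the defining marker of plasmacytoid dendritic cells, was well above background on 1 array. No marker of neutrophils (9 tested), of other dendritic cells (7), endothelium (5) or lung epithelium (8) was called at 24 h, and at 6 h none of any list was. The neutrophil markers had a median of -0.23 at 24 h, with 7 of 9 below 0. Vpreb3 was even over the ozone lungs, at 0.62, 0.58, 0.50 and 0.67 against -0.60 to -0.26 in air. The B-cell markers as a list were not, with medians from 0.25 to 0.92 over those lungs, relative to the mean of the air lungs. The part that these cell types had in the values of the members was not tested.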

How the data were processed

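Each deposited scanner file gives a linear Cy3 intensity per spot of 1 array from Agilent Feature Extraction 10.7.1.1. Its background was already subtracted, without scaling between arrays, per the file headers. Other deposited values used were flags for uneven spots and for signal well above background. A table of log2 values from the authors, normalized within each time point, served as an alternative only. Its column medians were 6.41 at 6 h and 6.73 at 24 h, and the sources used here do not give its treatment of background. Labelling started from an oligo(dT) primer, per the labels' protocols.

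Spots of a probe were averaged without control and uneven spots, and the 75th percentile of the array was subtracted from log2 signal. Of 41174 probes, 32343 were well above background on at least 4 arrays and kept, and 157 with an uneven spot were left out. The brightest probe per gene gave 21631 genes, of which 7336 had several probes. Names came from RefSeq's gene table through the accession (25097 probes), symbol (6333) or synonym (1640), and 8104 kept the name in the files.

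Comparisons used limma 3.58.1 (lmFit, eBayes with trend; R 4.3.3), 1 mean per group over 16 arrays, or 1 per group and slide. P-values are two-sided and adjusted over all genes by Benjamini-Hochberg. Errors are standard errors with 4 arrays per group, and the number of arrays limits the precision: the SE of the median gene was 0.13. Tested on simulated data drawn with the observed spreads, the fit for ozone minus air recovered 49 of 100 genes changed 1.5-fold and 64 of 100 changed 2-fold. The members and all lists were chosen with earlier results of these data known. Values are given per array for members called in any contrast, for those with the smallest p of their role at either time and for the largest and smallest spread, for called genes of other lists, and for some further members. The values of 1 gene of the pathway lists are not reported here. Alternatives were normexp background correction, quantile normalization, other filters, the mean of probes, arrays of 1 time only, and slide and replicate blocks. Further ones were the ozone difference within each slide, array weights, Xist as a covariate, the deposited values, and each array left out. The differences within a slide came from 1 fit of all 16 arrays. The deposited values were fitted on the arrays of 1 time only. Leaving out 2 arrays together was added after seeing the data.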

Additional observations from a re-analysis of the deposited data

Results flagged for a closer look

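Within groups of 4, 7 of 148 sets of values held an array far from the other 3, by Dixon's test at the 95% level, and chance gives about 1 in 20. Ozone replicate 3 of 6 h accounts for 4 of them. It was low for Ifit1 (-2.36, against -0.96 to -0.92 in the other ozone lungs), Ifi35 (0.40, against 0.71 to 0.73) and Xaf1 (-0.71, against -0.24 to -0.15), and high for Oas3 (-3.79, against -6.05 to -5.69). The other 3 lay in different groups. Irf9 was high in air replicate 2 of 24 h (0.52, against 0.21 to 0.24), Ifi27 low in ozone replicate 3 of 24 h (3.69, against 3.96 to 4.00), and Psmb9 low in air replicate 4 of 6 h (1.15, against 1.32 to 1.33).

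Oas1g, which took part in no comparison, was well above background on 1 array, ozone replicate 3 of 6 h, at -3.93, where the other 15 arrays lay between -8.94 and -7.13. The same array had the largest share of spots well above background, 83.9%.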

How the results depend on the processing

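The call of Ifit3 at 24 h was lost only for the difference within the slide of replicates 3 and 4 (0 members called). The median of 24 h stayed above 0 in every setting and fit, from 0.09 to 0.37 with 1 array left out. At 6 h the count of 2 members called was 1 with normexp, quantile normalization, no filter, the mean of probes, the arrays of 6 h only, array weights, Xist as a covariate and without the 2 arrays that stand apart. It was 0 on the slide of replicates 1 and 2 and with the authors' deposited values, and 1 to 3 with 1 array left out. The median of 6 h was 0.011 on the slide of replicates 1 and 2, -0.35 on the other, and -0.23 to -0.12 with 1 array left out.

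For the difference between times, 0 members were called in most settings, 3 with normexp (Ifi27, Ifi35 and Psmb9), 1 with array weights (Ifi27) and 0 to 1 with 1 array left out. The slide difference of 24 h called 16 members lower with normexp, where 9260 of 21631 genes were also called lower, and 0 to 2 with 1 array left out. That of 6 h called 0 to 4 with 1 array left out, 4 of them (Ifi44, Ifit1, Oas2 and Xaf1) without ozone replicate 4. The air comparison called 11 to 19. The cause of these changes was not tested.

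Replicate numbers were not treated as pairs in the main fit. Same-numbered ozone and air lungs had deviations correlated from 0.05 to 0.14 at 6 h and from -0.01 to 0.20 at 24 h. Over all pairs of an ozone and an air lung, the range was -0.17 to 0.15 at 6 h and -0.37 to 0.43 at 24 h. Whether same-numbered mice belonged together cannot be decided from these values. With the replicate block 1 member was called at 6 h (Ifi27) and 1 at 24 h (Ifit3), and the count of all genes called fell from 970 to 247 and from 434 to 261. Counts of all genes also moved by over 1.5 times in other settings, for example to 245 at 24 h with Xist as a covariate. With normexp the count at 24 h was 645. At 6 h 110 genes were called with the deposited values, which were fitted on the arrays of that time only. The values used here gave 100 on the same arrays. No member changed sign among those called. Dim probes such as Oas1g, Cxcl9, Mx1 and Oas3 lay near background, which limits their values.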

Other observations

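Several probes passed the filter for 11 members, counting the second probe of Ifi27. The probes of a gene differed in sign at 6 h for 7 of these members and at 24 h for 4. Psmb8 was among those whose probes gave close values, with differences of 0.49 and 0.49 at 24 h. Ddx58 ran from -0.41 to 0.10 over its 4 probes at 6 h, so for that gene the choice of the probe sets the sign. Parp14 ran from -0.16 to 0.39 over its 3 probes at 24 h, where only its dimmest probe lay below 0.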
